A study of Mus musculus with 25 samples.

Results

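The REST conditional knockout (REST cKO) was compared with its wild-type (WT) control 3 days after spinal cord injury (SCI), using 4 REST cKO libraries (replicates 9, 15, 20 and 27) and 3 WT libraries (replicates 5, 16 and 22), chosen by their labels from the 25 libraries of the series, over all 9931 genes with a symbol. Mice of both genotypes, labelled C57BL/6, carried floxed Rest alleles (REST flx/flx) and a Cre-dependent TdTomato reporter (STOP flx/flx TdTomato). The REST cKO mice had received AAV-Syn-Cre, a virus that drives Cre from the neuronal synapsin promoter, and the WT mice AAV-Syn-GFP, so that WT neurons kept both floxed alleles unrecombined and genotype and injected virus changed together. All 7 libraries followed a complete crush of the thoracic cord and a recovery of 3 days, and each was made from a small pool of sorted cells of the sensorimotor cortex with a kit that reads the 3′ ends of mRNAs. The study counts its replicates as mice, but the labels do not tie each library to a separate mouse, so the p-values measure the spread between libraries, which may in part be technical. All values are normalized counts on a log2 scale, as deposited, after the removal of sequencing components. Differences are REST cKO minus WT.

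REST, also called NRSF, is a zinc-finger repressor that binds a DNA element named RE1 and recruits CoREST, SIN3 and histone-modifying enzymes to it. In non-neuronal cells and progenitors it keeps neuronal genes such as those of synapses and ion channels silent, and its level falls as neurons mature. Cortical neurons with axons in the spinal cord ordinarily mount a weak growth response after injury, and the comparison asks how their transcripts differ without REST during the early response.

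The libraries differed in ways other than genotype. Each of the 3 labelled batches held both genotypes, but 3 of the 4 REST cKO libraries and 1 of the 3 WT libraries were from females. Xist, the X-inactivation RNA, was at 1.66 to 2.48 in the 4 libraries labelled female and at -0.02 to 1.06 in the 3 labelled male. Of 4 Y-linked genes, Eif2s3y was higher in every male than in every female library, at 0.24 to 2.26 against -2.48 to 0.02, while Ddx3y (0.72 to 2.63 against -1.94 to 0.86), Kdm5d (0.88 to 1.23 against 0.20 to 1.19) and Uty (-2.55 to 1.31 against -3.41 to 1.07) overlapped between the sexes. The first sequencing component averaged 6.49 ± 4.52 (SD, n = 3) over the WT libraries, against -2.57 ± 4.21 (SD, n = 4) for REST cKO (two-sided exact permutation test, p = 0.0857; the smallest p this design allows is 0.0286). WT replicate 5 stood apart. Values under -2 made up 29.5% of its genes, the most of all 25 libraries, against 4.16% to 9.24% in the other 6 libraries of day 3, and it was the lowest WT library for 55.6% of the genes that were higher in REST cKO without overlap. Pearson correlations across genes between the 7 libraries were 0.382 to 0.594.

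The cortical neuron label was checked against marker lists. All 10 pan-neuronal markers were measured, with a list mean of 1.23 to 1.44 in REST cKO and 1.10 to 1.499 in WT, and 7 of 8 markers of excitatory neurons averaged 0.45 to 1.19 and 0.99 to 1.47. Fezf2, Crym and Ldb2, which mark deep-layer projection neurons, were not among the measured genes, and the other 7 of 10 such markers averaged 0.21 to 0.45 in REST cKO and 0.13 to 0.79 in WT. Transcripts of other cells were also present, and in all 7 libraries the list means of microglial and of endothelial markers lay above that of the pan-neuronal markers, which are other genes. The 14 microglial markers averaged 2.98 to 3.24 in REST cKO and 2.90 to 3.36 in WT, and only Csf1r, the CSF1 receptor, was without overlap among them (fitted log2 difference -0.66 ± 0.26 SE). The 13 markers of endothelial cells and pericytes averaged 2.27 to 2.60 in REST cKO and 2.06 to 2.17 in WT. Their list mean did not overlap between genotypes, although no single member of the list was without overlap. Astrocyte markers averaged 1.33 to 2.20 in REST cKO and 0.97 to 2.32 in WT, and blood cell markers 0.69 to 1.81 and -0.42 to 3.21. Besides Csf1r, the single markers without overlap were Tubb3 and Gad1, higher in REST cKO, and the oligodendrocyte genes Trf and Olig1, lower. In such pooled cells, fewer cells of a type and less RNA per cell cannot be told apart, and the part of these transcripts in the differences below was not tested.

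**Figure D1:**
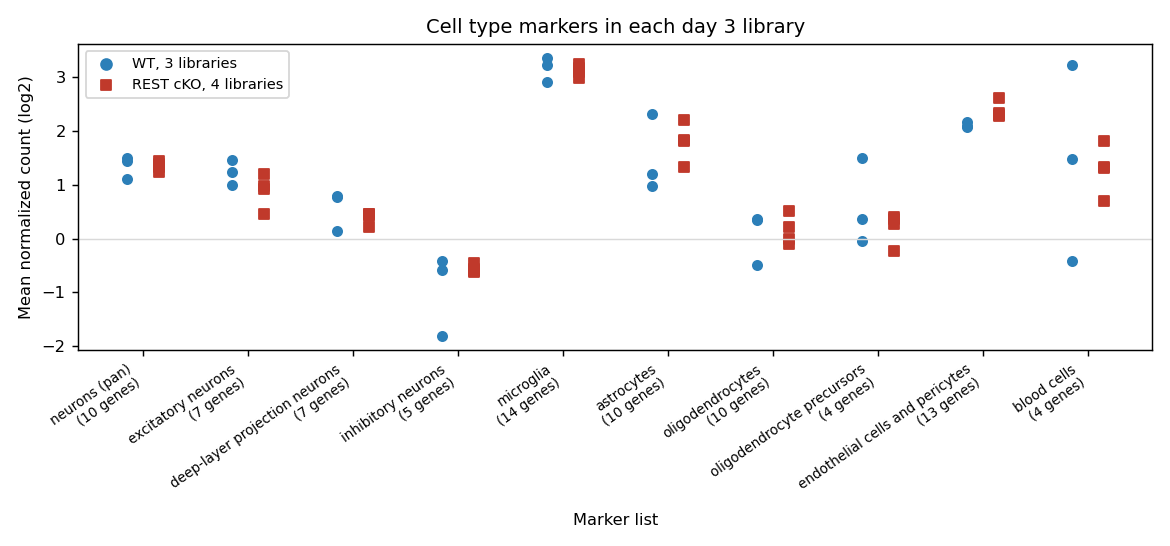
Mean normalized count (log2) of each cell type marker list (x axis, with the number of measured genes) in the 3 WT (circles) and 4 REST cKO (squares) libraries of day 3. The microglial list lies between 2.90 and 3.36 in all 7 libraries, and the endothelial list is the only list whose REST cKO values (2.27 to 2.60) all lie above the WT values (2.06 to 2.17).

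No gene passed the test at day 3. Of 9931 genes, 0 (0%) reached an adjusted p under 0.1 (limma over all 25 libraries with both sequencing components, Benjamini-Hochberg), and the lowest adjusted p was 0.620. An unadjusted p under 0.05 was reached by 633 of the 9931 genes, 378 of them higher and 255 lower in REST cKO. Where nothing differs, a share of 0.05 of genes reaches such a p by chance. The median standard error of a fitted log2 difference was 0.99, so that the 95% interval reached 2.03 to either side for the median gene. The median fitted difference over all genes was 0.05. As a description, genes were also counted whose 4 REST cKO values all lay above or all below the 3 WT values. There were 358 higher genes (3.6% of those measured) and 396 lower genes (3.99%), 754 in all (7.59%). These shares are the background for each list below, where "higher" and "lower" without overlap are descriptions and not calls.

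A set of genes differed from the rest in how their values related to the sequencing components. For 9791 genes the values of the 25 libraries had no correlation with either component (at most 3.94e-10), as is left when components are regressed out. In the other 140 genes (1.41%) the larger correlation was 0.000621 to 0.369. Of these 140, 42 (30%) were without overlap at day 3, 12 higher and 30 lower, against 7.27% of the other genes. In 131 of the 140, both correlations became 0 (within 2e-07) when the values of 1 to 4 libraries were changed. Each change was of sign, a shift by a whole number of at most 3, or both. The search stopped at the fewest libraries that gave a solution, and with 1 library it kept only the closest change. Where 2 or more libraries were needed, no second solution of that size was found. Whether each solution is the only possible one was not tested. A change in 1 library was enough in 66 genes. The 223 values concerned lay in day 3 (104) and day 7 (114) libraries, with 3 in sham and 2 in day 1 libraries.

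Tgfb2 shows what this means for single values. This gene of a TGF-beta ligand is listed at 2.80 in WT replicate 5, and -2.80 would leave no correlation. With the changed value its genotypes overlapped. Over the 58 genes with such a value in a day 3 library, 30 were without overlap as listed (24 lower, 6 higher) and 4 after the change (3 lower, 1 higher), namely Rpl5, Arhgef17 and Grin1, lower, and Adcy3, higher. WT replicate 5 held 29 of the day 3 values concerned. Over all genes the change left 353 higher and 375 lower genes without overlap, and still 0 adjusted calls. How these values arose was not tested. Rest, Jun, Atf2, Atf3, Smad1, Stat3, Pi4k2a and Tsc1 correlated with a component and had no such solution, and genes of the 140 are marked as such where they are named below.

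**Figure D2:**
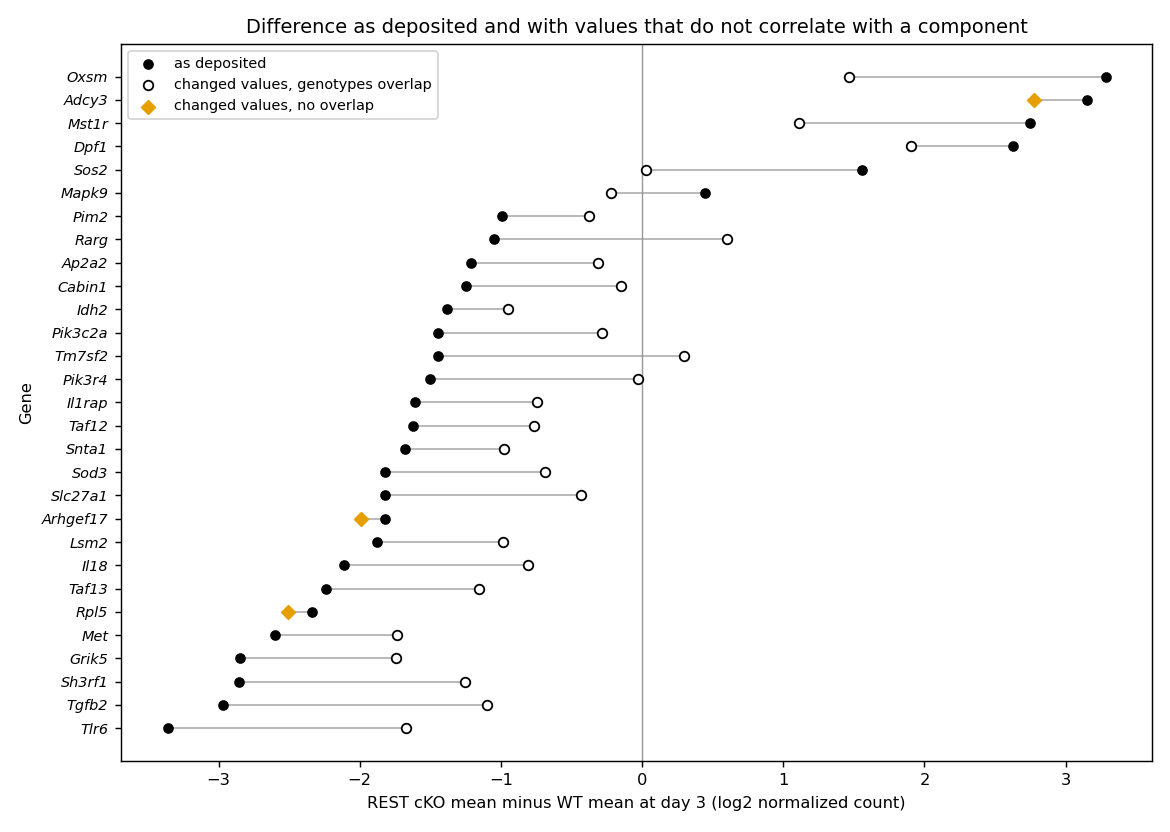
REST cKO mean minus WT mean at day 3 (log2 normalized count, x axis) of 29 of the 30 genes that were without overlap as deposited and have a day 3 value that could be changed so that the gene no longer correlates with a sequencing component (y axis). Filled circles are the deposited values, open circles and diamonds the values after the change; the genes with open circles then overlap, and the diamonds (Adcy3, Arhgef17 and Rpl5) do not.

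Rest itself (chr5:77265491-77286432, plus strand, GRCm38) had values of 1.64, 2.88 and 0.56 in WT replicates 5, 16 and 22 and of -0.04, -0.31, -0.24 and -1.61 in REST cKO replicates 9, 15, 20 and 27. Every REST cKO library lay below every WT library, with means of -0.55 ± 0.71 (SD, n = 4) and 1.69 ± 1.16 (SD, n = 3). The fitted log2 difference was -1.61 ± 0.92 (SE; 95% interval -3.51 to 0.28; adjusted p = 0.81 by limma), and the difference of means was -2.24. Within batches 1, 2 and 3 the differences were -1.68, -3.15 and -2.16. The sources used here do not state which part of Rest the floxed allele loses, and a 3′ tag outside that part would not report the deletion. Values below follow the same order of libraries.

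Of 26 genes for REST and its corepressors, 22 were measured, 1 was higher without overlap (4.55%) and 2 were lower (9.09%), with a median fitted difference of -0.11. Besides Rest, the lower gene was Rcor1, which encodes the CoREST scaffold, at 2.29, 2.60 and 2.13 in WT and 1.47, 1.19, 1.40 and 2.10 in REST cKO (fitted difference -0.89 ± 0.45 SE). Within batch 3, which holds REST cKO replicate 27 and WT replicate 22, Rcor1 differed by -0.03. Ehmt2, which encodes the histone H3K9 methyltransferase G9a, was the higher gene (1.75 ± 0.90 SE), with WT replicate 5 far below the other WT libraries at -2.77 against -0.19 and -0.13. Fitted on the 7 libraries alone, Ehmt2 differed by -0.0338 with both components and by 1.76 without them. Without WT replicate 5 the list had 1 higher and 5 lower genes, beside a background of 7.61% higher and 10.3% lower.

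RE1 elements close to transcription starts are shown because they are where REST would act if it bound there. The core AGCACCNNGGACA, searched on both strands of the RefSeq promoters (GRCm38.p6, 250 bases before to 50 after each start), occurred in 21 of 27025 gene symbols (0.0777%). Promoters were matched to 7748 measured genes, 9 of which (0.116%) held the core. Each stretch is given 5′ to 3′ on the strand of the match, with the core in capitals.
Dner: ttcAGCACCAAGGACAagggc
Eif5: agaAGCACCGTGGACAtagcc
Fam163b: gtcAGCACCAGGGACAgttcc
Gad2: ggtAGCACCCTGGACAgcgcg
Gria2: tttAGCACCGCGGACAgcgct
Hrh3: ggcAGCACCACGGACAgcgcc
Osbp2: ttcAGCACCGCGGACAgcggc
Robo2: cttAGCACCACGGACAgagca
Scamp5: tttAGCACCACGGACAgctcc
They lie at chr1:84696351-84696371 (minus strand, Dner), chr12:111537858-111537878 (plus, Eif5), chr2:27142561-27142581 (minus, Fam163b), chr2:22622161-22622181 (plus, Gad2), chr3:80802989-80803009 (plus, Gria2), chr2:180104574-180104594 (plus, Hrh3), chr11:3774791-3774811 (plus, Osbp2), chr16:75447352-75447372 (minus, Robo2) and chr9:57468194-57468214 (minus, Scamp5).

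None of the 9 genes was without overlap, 5 had a fitted difference above 0, and their median was 0.01. Gria2, the AMPA receptor subunit GluA2, differed by 0.49 ± 0.54 (SE), Gad2, a GABA-synthesizing enzyme, by 0.49 ± 1.11, and Scamp5, a synaptic vesicle protein, by 0.01 ± 0.66. Robo2, a receptor for the axon guidance cue SLIT, had the largest difference of the 9 (-3.28 ± 1.48 SE, adjusted p = 0.78 by limma). A match of these letters is a description and not evidence of binding.

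Broader REST target lists were counted in the same way. Of 53 textbook RE1 targets, 47 were measured, 1 was higher without overlap and 1 lower (2.13% each), and the median fitted difference was -0.25, below the 0.05 of all genes. Without WT replicate 5, 5 were higher (10.6%) and 6 lower (12.8%), beside 7.61% and 10.3% of all genes. The higher gene was Tubb3, neuronal tubulin beta III, at 0.40, 0.29 and 0.34 in WT and 0.81, 0.66, 0.98 and 0.55 in REST cKO, a separation with a fitted difference of 0.34 ± 0.83 (SE). Ptprn, a dense-core vesicle protein, was the lower gene (-0.87 ± 0.73 SE; 0.0105 in a fit of the 7 libraries that kept both components and -0.75 in one without them). The study also lists genes with a REST footprint at the promoter in retinal ganglion cells, of which 539 of the 802 distinct symbols in the table used were measured, 30 being higher without overlap (5.57%) and 20 lower (3.71%), with a median of 0.05. Its list of genes predicted as REST-repressed in those cells by the network method ARACNe had 86 of 236 members measured, 4 higher (4.65%) and 3 lower (3.49%). The table used for it may hold only some of the predicted genes. It had 10 higher (11.6%) and 8 lower genes (9.30%) without WT replicate 5. Both lists come from another cell type. In the footprint list Vwa8, a mitochondrial ATPase (3.36 ± 1.02 SE), Ankrd27, a RAB21 exchange factor (2.96 ± 0.96 SE), and Map7, a microtubule-binding protein (2.66 ± 0.86 SE), were the highest by moderated t, and Prkcd, Sgms1 and Pgm2l1 the lowest. Without WT replicate 5 the footprint list had 49 higher (9.09%) and 64 lower genes (11.9%), beside 7.61% and 10.3% of all genes.

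The 14 regeneration-associated genes that the study names were all measured. Among them, Jun, Smad1, Sox11, Stat3 and Atf3 were derived by the study from other injury data, and the others were named with these samples. As the study has already described all of them in these libraries, their direction is no independent evidence. The study called some genes at day 3, Jun and Atf3 among them, and Smad1, Sox11 and Stat3 by day 7. It fitted limma voom to normalized counts, unlike the fit used here, in which no gene passed at day 3. Why the 2 fits differ was not tested. Jun, Sox11, Atf3 and Atf2, transcription factors of the injury response, were higher in REST cKO without overlap, and none of the 14 was lower. The share was 28.6% higher, beside 3.6% higher and 3.99% lower over all genes. With WT replicate 5 left out, 6 were higher (42.9%) and 0 lower, beside 7.61% higher and 10.3% lower of all genes. Jun lay at 2.10, 2.86 and 1.84 in WT and 3.24, 3.04, 3.77 and 3.39 in REST cKO (fitted difference 0.72 ± 0.30 SE, adjusted p = 0.76 by limma). Atf3 lay at -1.44, -1.65 and 0.25 in WT and 0.54, 0.67, 1.66 and 1.70 in REST cKO (2.00 ± 0.98 SE). For Atf3 the WT libraries were spread widely, and replicate 22 lay close under the lowest REST cKO library. Atf2 gave the largest separation, with WT at -2.02, -0.24 and -1.10 and REST cKO at 0.87, 1.64, 1.28 and 1.71 (2.63 ± 0.69 SE, adjusted p = 0.62 by limma). Sox11 separated by little, with WT at 0.42, -0.67 and 0.38 and REST cKO at 1.12, 0.75, 0.51 and 0.88 (0.72 ± 1.04 SE).

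All 4 of these genes are among the 140 that correlate with a component, as are 9 of the 14 named genes, against 1.41% of all genes. For Sox11 a change of sign in 11 or in the other 14 libraries left no correlation, and under either change the genotypes overlapped. Of the 5 named genes with no such correlation, Gap43, Basp1, Vav2, Syt4 and Rapgef4, none was without overlap. Gap43, a growth cone protein, ranged from 0.45 to 2.74 in WT and from 0.60 to 2.66 in REST cKO (-0.15 ± 0.66 SE). Stat3, the transducer of cytokine signals, was at 3.33, 3.35 and 2.33 in WT and at 3.21, 3.42, 3.25 and 3.01 in REST cKO (0.02 ± 0.28 SE). In a wider list of 41 textbook regeneration genes, 34 were measured, 4 were higher (11.8%) and 1 lower (2.94%). Without the genes that correlate with a component, Tubb3 and Klf7 remained, the latter a growth-promoting Krüppel-like factor that was lower (3.27, 2.42 and 3.00 in WT; 2.11, 2.07, 1.70 and 1.73 in REST cKO; -1.17 ± 0.43 SE). Of 20 growth-limiting genes measured, none was without overlap, and the suppressors Socs3 and Klf4 differed by 0.12 ± 0.73 and -0.05 ± 0.61 (SE), of which Klf4 correlates with a component.

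**Figure D3:**
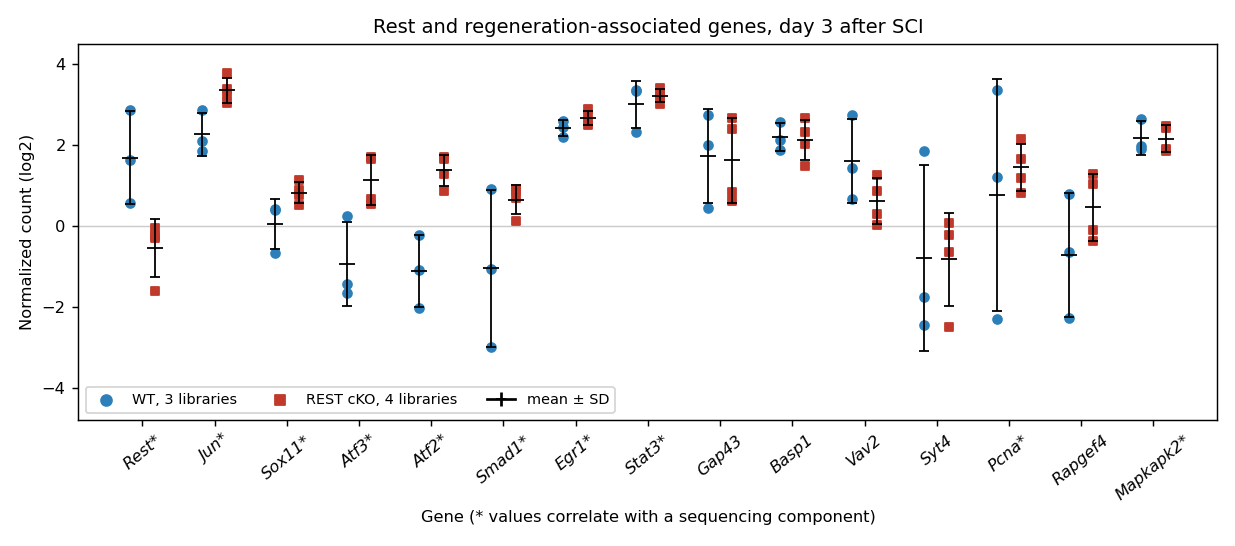
Normalized counts (log2, y axis) of Rest and the 14 study-named genes (x axis) in the 3 WT (circles) and 4 REST cKO (squares) libraries of day 3, with mean ± SD in black; an asterisk marks genes that correlate with a sequencing component. Rest lies lower, and Jun, Sox11, Atf3 and Atf2 higher, in every REST cKO library than in every WT library, and all 5 carry the asterisk.

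Among genes without overlap and with a mean of at least 0 in the higher genotype, Vegfb had the highest moderated t. Vegfb, a growth factor of the VEGF family (chr19:6982473-6987651, GRCm38), was at -2.97, -1.24 and 0.92 in WT and at 2.22, 1.57, 1.44 and 1.67 in REST cKO (fitted difference 3.55 ± 0.80 SE, 95% interval 1.89 to 5.20, adjusted p = 0.62 by limma). Ebp, the sterol isomerase of cholesterol synthesis (chrX:8185329-8193512), followed the same pattern, with WT at -2.44, -1.56 and 1.05 and REST cKO at 1.95, 1.58, 1.67 and 1.501 (3.37 ± 0.81 SE). In both genes WT replicate 22 lay just under the REST cKO libraries and the other WT libraries far below them. Within batch 3, which holds WT replicate 22, Vegfb differed by 0.76 and Ebp by 0.45, against 5.19 and 4.39 in batch 1. Without WT replicate 22 these genes and Acss1, a mitochondrial acetyl-CoA synthetase, had an adjusted p of 0.0490 (limma), and their fitted differences were 4.41, 4.25 and 4.42.

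The other genes at the top were Mcrip2, Rida, Ebi3, Ppib, Prkx, Tpt1-ps5, Psd2, Atf2, Sord and Tuba1a. Ebi3, a subunit of interleukins 27 and 35, separated widely, with WT at -2.51, -1.19 and -1.35 and REST cKO at 1.37, 1.05, 1.36 and 1.77 (3.57 ± 0.88 SE). Ppib, a prolyl isomerase of the endoplasmic reticulum, was at -2.30, -2.12 and -0.40 in WT and at 2.28, 0.90, 0.68 and 0.93 in REST cKO (3.31 ± 0.83 SE). Of the 12 genes at the top, only Tuba1a had a WT mean above 0. Tuba1a, the main alpha-tubulin of growing neurons, was at 2.86, 2.31 and 2.20 in WT and 3.01, 3.71, 3.78 and 3.28 in REST cKO (1.00 ± 0.28 SE, 95% interval 0.43 to 1.57). Its reads may be shared with near-identical alpha-tubulin genes. Tpt1-ps5 is a pseudogene, and its parent Tpt1 was at 3.46 to 3.81 in REST cKO and at 3.66 to 3.76 in WT.

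The genes lowest in REST cKO included Lman1, Atg3, Prkcd, Ighg1, Cacna1a, Rpl5, Tlr6, Serpina3f, Tgfb2 and Mdga2. Lman1, a cargo receptor between endoplasmic reticulum and Golgi, was at 2.85, 2.84 and 3.32 in WT and at 1.46, 1.93, 1.64 and 1.12 in REST cKO (-1.63 ± 0.38 SE, 95% interval -2.41 to -0.85, adjusted p = 0.62 by limma). Atg3, an enzyme of LC3 lipidation in autophagy, was at 2.30, 3.01 and 3.15 and at 1.62, 1.66, 1.30 and 0.69 (-1.78 ± 0.48 SE). Prkcd, protein kinase C delta, was at 2.50, 3.10 and 3.27 and at 2.01, 2.06, 1.95 and 1.54 (-1.14 ± 0.32 SE). All 3 genes were above 0 in every library. Cacna1a, the pore subunit of P/Q-type calcium channels, was at 0.87, 1.48 and 1.15 in WT and at -3.11, -2.45, -2.35 and -1.94 in REST cKO (-3.97 ± 1.14 SE). Ighg1, an immunoglobulin heavy chain gene, was at 2.17 to 3.01 in WT and 0.25 to 0.90 in REST cKO (-2.24 ± 0.63 SE). Rpl5, Tlr6 and Tgfb2 are among the genes that correlate with a component, and of these only Rpl5 stayed without overlap when the values concerned were changed.

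**Figure D4:**
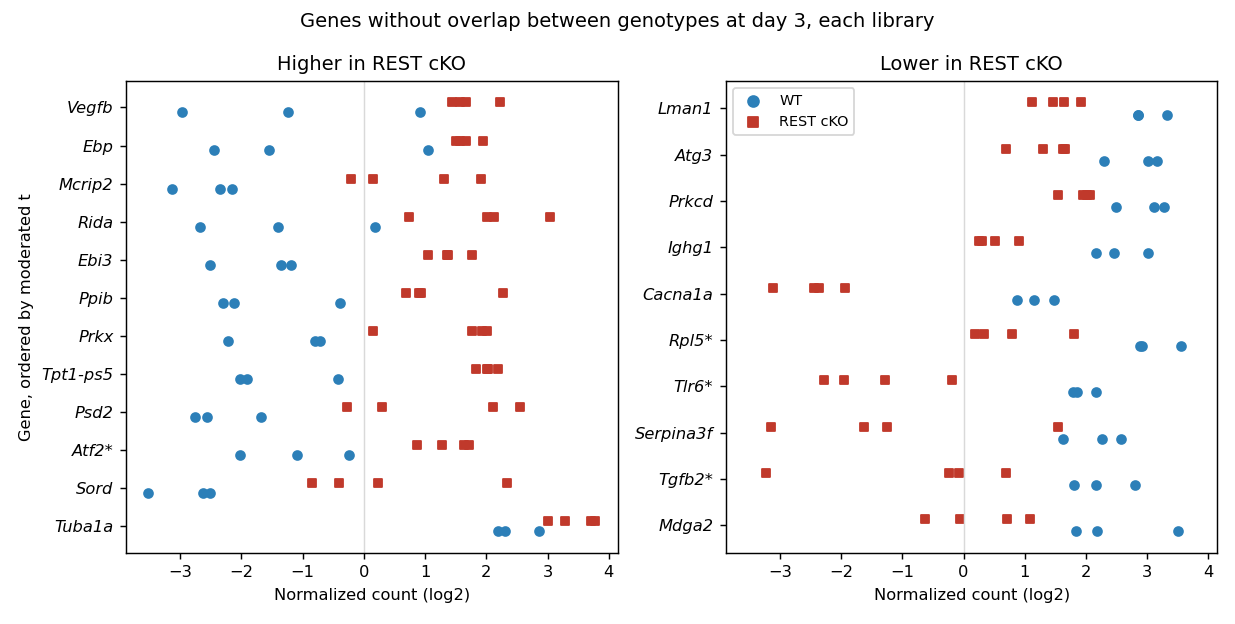
Normalized counts (log2, x axis) of the 12 genes highest (left) and 10 of the 12 lowest (right) in REST cKO by moderated t among genes without overlap, in each of the 3 WT (circles) and 4 REST cKO (squares) libraries; an asterisk marks genes that correlate with a sequencing component. Lman1, Atg3, Prkcd and Tuba1a separate at values above 0, whereas the higher group rests mostly on WT values below 0.

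Genes of cholesterol synthesis and lipid handling had more higher than lower members. Of 45 measured, 6 were higher (13.3%) and 1 lower (2.22%), with a median fitted difference of -0.04, so that the rest of the list did not follow. Besides Ebp, the higher genes were Srebf1, the SREBP1 transcription factor of lipid synthesis (2.96 ± 1.06 SE), its escort Scap (1.12 ± 0.51 SE) and retention factor Insig2 (0.95 ± 0.61 SE), Sc5d, a late enzyme of cholesterol synthesis (2.53 ± 1.17 SE), and Elovl4, an elongase of very long fatty acids (2.88 ± 1.09 SE). Srebf1 was at -2.10, -1.39 and -1.44 in WT and at 0.91, 0.99, 1.75 and 0.79 in REST cKO. The lower gene, Tm7sf2, correlates with a component, and with changed values its genotypes overlapped. Without WT replicate 5 the list had 7 higher (15.6%) and 4 lower genes (8.89%), beside 7.61% and 10.3% of all genes.

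Ribosomal protein genes had more lower than higher members. Of 81 measured, 10 were lower (12.3%) and 4 higher (4.94%), with a median of -0.07. The lower genes include Rplp1, a protein of the ribosomal stalk, at 3.78, 3.89 and 3.86 in WT and 3.54, 3.26, 3.55 and 3.53 in REST cKO (-0.44 ± 0.14 SE), and Rps26, at 3.23, 3.32 and 3.31 and at 2.69, 3.04, 2.98 and 2.66 (-0.46 ± 0.20 SE). Rpl7a (0.94 ± 0.35 SE), Rps15 (0.69 ± 0.32 SE) and Rpl37a (0.51 ± 0.29 SE) were higher, of which Rpl7a was at -0.0439 in a fit of the 7 libraries that kept both components and at 0.80 in one without them. Ribosomal protein genes have many processed copies, among which reads can be split. Without WT replicate 5, 11 were lower (13.6%) and 10 higher (12.3%), beside 10.3% and 7.61% of all genes. Nuclear genes of oxidative phosphorylation showed the other balance, with 7 of 82 higher (8.54%) and 2 lower (2.44%; median 0.02). The higher genes include Ndufs5, of complex I, at 0.61, 1.54 and 0.32 in WT and 2.57, 1.96, 2.00 and 2.16 in REST cKO (1.48 ± 0.47 SE), and Ndufb7 (1.53 ± 0.55 SE), whereas Ndufb3 (-0.30 ± 0.24 SE) and Ndufb4c, annotated as a processed pseudogene, were lower. Leaving out WT replicate 5 gave 12 higher (14.6%) and 5 lower (6.10%) of the 82, beside the same 7.61% and 10.3%. Of 19 mitochondrially encoded genes, mt-Nd3 was higher (0.70 ± 0.30 SE) and none was lower.

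**Figure D5:**
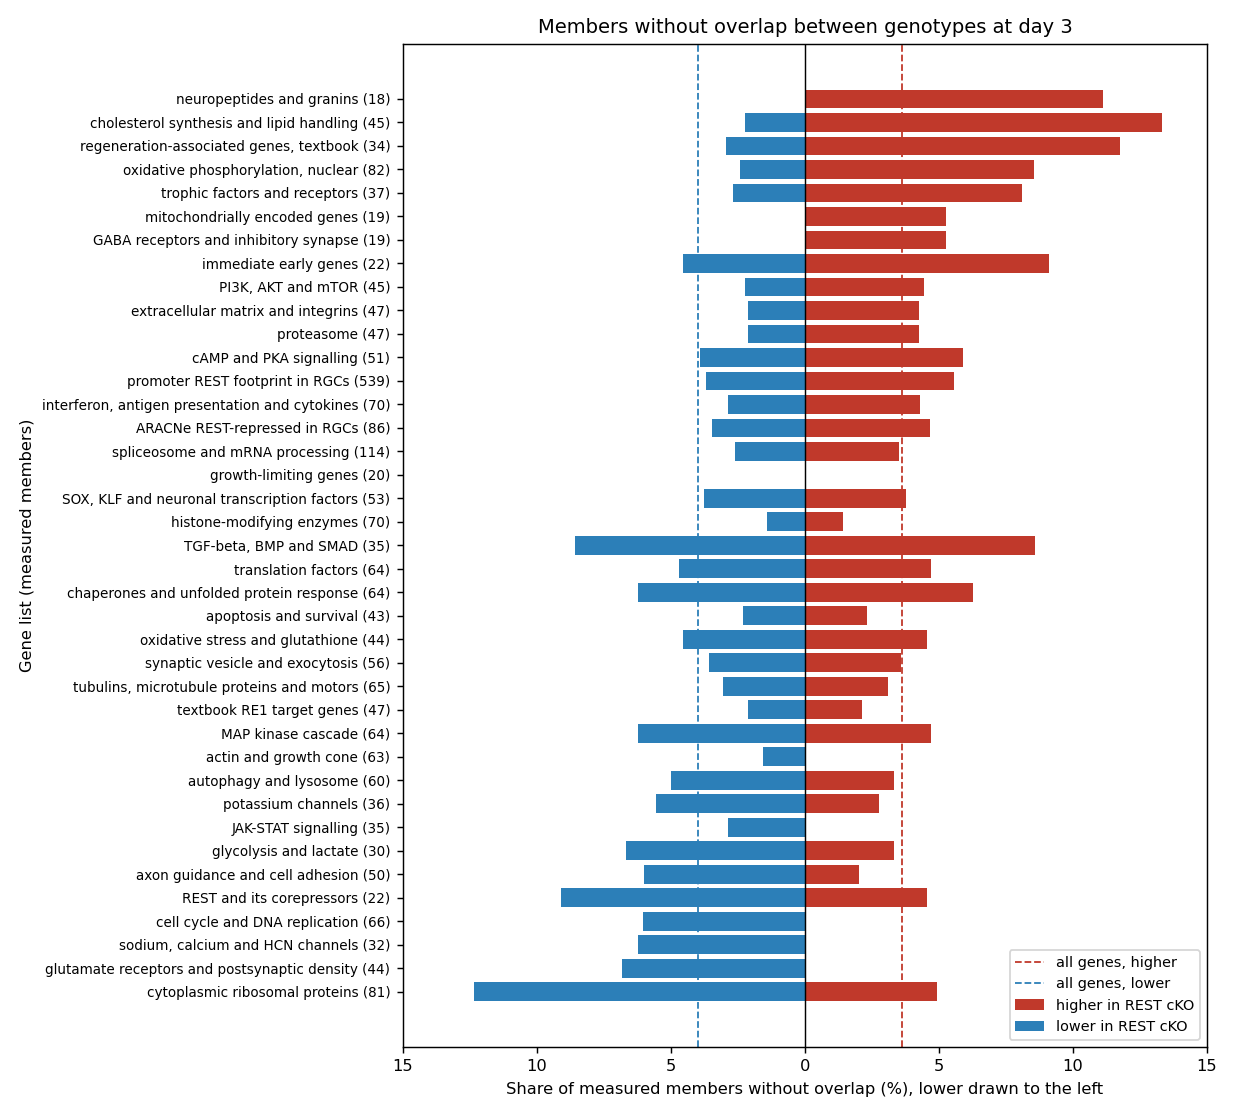
Share of measured members (x axis, %) of each gene list (y axis, number of measured members in brackets) that were higher (right) or lower (left) in REST cKO without overlap at day 3; dashed lines give the same shares over all 9931 genes, 3.6% and 3.99%. Cholesterol synthesis reaches 13.3% on the higher side and ribosomal proteins 12.3% on the lower side; short lists move by several percent with 1 gene, and RGCs are retinal ganglion cells.

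Synaptic and channel genes are known targets of REST in non-neuronal cells. Their lists had median fitted differences of -0.13 (glutamate receptors), -0.35 (sodium, calcium and HCN channels), -0.34 (synaptic vesicles), 0.00 (potassium channels), 0.30 (GABA) and 0.17 (neuropeptides), beside 0.05 over all genes. Of 44 measured genes of glutamate receptors and the postsynaptic density, 0 were higher and 3 lower (6.82%), all of them receptors. Grik1, a kainate receptor subunit, was at 1.43, 0.40 and 2.58 in WT and at -3.48, -0.39, 0.02 and 0.20 in REST cKO (-2.76 ± 1.11 SE). Grik5 and Grm7 correlate with a component. With changed values Grik5 overlapped between genotypes, while the glutamate receptor gene Grin1, which overlapped as listed, was then lower. The day 3 values of Grm7, a presynaptic glutamate receptor, were not among those concerned, and it was at 2.23, -0.22 and 2.02 and at -3.23, -0.39, -3.10 and -0.48 (-3.98 ± 1.24 SE). Of 32 sodium, calcium and HCN channel genes and related pumps, 0 were higher and 2 lower, Cacna1a and the calcium pump gene Atp2b1 (-0.34 ± 0.23 SE). Without WT replicate 5 the glutamate list had 4 higher (9.09%) and 11 lower genes (25%), beside 7.61% and 10.3% of all genes.

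Among 56 genes of synaptic vesicles and exocytosis, 2 were higher and 2 lower (3.57% each). Atp6v1a, a subunit of the proton pump that fills vesicles, was at 2.63, 2.46 and 2.79 in WT and 2.83, 3.52, 3.39 and 2.99 in REST cKO (0.69 ± 0.28 SE), and the vesicle protein gene Syn2 was lower (-1.20 ± 0.82 SE). Of 36 potassium channel genes, Kcnip4 was higher (2.56 ± 0.97 SE), and Kcnip3 (-2.23 ± 1.16 SE) and Kcnq5 (-1.45 ± 0.90 SE) were lower. In the GABA list of 19, Slc6a11, the GABA transporter GAT-3, was the gene without overlap, at -2.69, 0.55 and -1.25 in WT and 1.51, 1.46, 2.07 and 0.94 in REST cKO (2.65 ± 0.78 SE). Of 18 neuropeptide and granin genes, 2 were higher, the receptor genes Adcyap1r1 (2.20 ± 1.23 SE) and Oprl1 (1.85 ± 0.97 SE), and none was lower.

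Signalling pathways are given list by list. In the TGF-beta, BMP and SMAD list 3 of 35 were higher and 3 lower (8.57% each; median 0.38). The higher genes were the ligand Bmp4, at -2.51, -2.08 and -1.43 in WT and 2.02, 0.66, 0.53 and 0.93 in REST cKO (2.86 ± 1.13 SE), the co-receptor Tgfbr3 (2.06 ± 1.04 SE) and the effector Smad5 (1.05 ± 0.62 SE). Of the lower genes, the receptor Tgfbr1 (-0.42 ± 0.21 SE) does not correlate with a component, unlike Tgfb2 and the BMP antagonist Chrd. This list had 6 higher (17.1%) and 3 lower genes (8.57%) without WT replicate 5, beside 7.61% and 10.3% of all genes. Among 37 trophic factors and receptors, Vegfb, the BDNF receptor gene Ntrk2 and the heparin-binding factor Mdk (1.98 ± 1.34 SE) were higher (8.11%), and Met (-2.78 ± 1.14 SE) was lower as listed but overlapped with changed values. Ntrk2 was at 0.70, 1.38 and 0.96 in WT and at 2.05, 3.64, 2.05 and 2.26 in REST cKO (1.53 ± 0.63 SE), with a difference of 1.30 to 1.47 within each batch.

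In the cAMP list, the adenylyl cyclases Adcy6, at -1.95, -1.30 and -1.34 in WT and 1.29, 1.27, 2.00 and 0.66 in REST cKO (2.77 ± 1.15 SE), and Adcy3 (3.46 ± 1.14 SE; it correlates with a component) were higher with Atf2, whereas the phosphodiesterase gene Pde4a, at 3.28, 2.40 and 2.75 and at 1.38, 0.84, 1.16 and 1.25 (-1.91 ± 0.85 SE), and Gnai2, an inhibitory G protein (-0.45 ± 0.24 SE), were lower, 3 and 2 of 51. Of 35 JAK-STAT genes only Socs7 was without overlap (-0.62 ± 0.33 SE). Of 64 MAP kinase genes 3 were higher and 4 lower. The higher genes Mapk9 and Sos2 correlate with a component and overlapped with changed values. Among the lower genes was Map3k10, a kinase upstream of JNK, at 3.02, 1.46 and 1.58 in WT and 0.73, -1.21, -1.53 and -1.59 in REST cKO (-3.65 ± 1.20 SE).

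In the list of axon guidance and adhesion, 1 of 50 genes was higher and 3 were lower. Sema5a, a semaphorin, was at -2.14, -2.46 and -1.61 in WT and at 0.85, 0.62, 0.71 and 0.57 in REST cKO (3.53 ± 1.44 SE). Nrcam, an adhesion molecule of axons (-2.45 ± 1.00 SE), Epha5, an ephrin receptor (-1.26 ± 0.59 SE), and Sema4a (-1.41 ± 0.68 SE) were lower. Of 65 genes of microtubules and motors, Tuba1a and Tubb3 were higher and Map4 and Map9 lower. Actin and growth cone genes had 1 of 63 without overlap, Cyfip2 (-0.77 ± 0.39 SE). Cell cycle genes had 0 of 66 higher and 4 lower (6.06%), with Cdk9 and Ccnt2, partners in transcription elongation, at -1.13 ± 0.40 and -1.04 ± 0.36 (SE), and the replication licensing factor Cdt1 at -2.89 ± 1.15.

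Chaperones and the unfolded protein response had 4 of 64 genes in each direction (6.25%). Hspa9, the mitochondrial HSP70, was at 2.63, 3.25 and 2.88 in WT and 2.05, 0.96, 0.99 and 1.58 in REST cKO (-1.57 ± 0.50 SE), and Bag1 (3.17 ± 1.24 SE) and Dnajb9 (1.52 ± 0.72 SE) were higher. In the apoptosis list Pmaip1, the BH3-only protein NOXA, was higher (3.19 ± 0.91 SE) and Aifm2, a suppressor of ferroptosis, lower (-3.87 ± 1.35 SE), and the other 41 of 43 overlapped. Of 70 genes of interferon, antigen presentation and cytokines, 3 were higher, Cxcr4, which correlates with a component, Myd88, the adaptor of Toll-like receptors (3.49 ± 1.18 SE), and Tmem173, which encodes STING (1.72 ± 0.89 SE), and 2 lower, of which Il18 correlates with a component and overlapped with changed values. In Tmem173, WT replicate 5 was at -2.28 and the other WT libraries at 1.15 and 1.17, and fits of the 7 libraries gave -0.0841 with both components and 1.81 without them. The list of 70 genes had 9 higher (12.9%) and 3 lower (4.29%) without WT replicate 5, beside 7.61% and 10.3% of all genes. The remaining lists, on immediate early genes (2 higher and 1 lower of 22), extracellular matrix (2 and 1 of 47), PI3K, AKT and mTOR (2 and 1 of 45), translation factors (3 and 3 of 64), mRNA processing (4 and 3 of 114), glycolysis (1 and 2 of 30), the proteasome (2 and 1 of 47), oxidative stress (2 and 2 of 44), autophagy and lysosome (2 and 3 of 60), histone-modifying enzymes (1 and 1 of 70) and neuronal transcription factors (2 and 2 of 53), held at most 4 such genes in a direction, among them Jun, Sox11, Rarg, Lsm2 and Sod3, which correlate with a component. Of these, Sox11, Rarg, Lsm2 and Sod3 overlapped with changed values. The autophagy and lysosome list had 9 higher (15%) and 4 lower genes (6.67%) without WT replicate 5, beside 7.61% and 10.3% of all genes.

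The difference at day 3 was also tested against that in sham-operated mice (3 REST cKO and 4 WT libraries) and at day 7 (3 and 3), which share no library with day 3. Of 9931 genes, 0 passed an adjusted p under 0.1 in either test (0% in each, limma), and the lowest adjusted p-values were 0.883 and 0.261. An unadjusted p under 0.05 was reached by 511 and 787 of the 9931 genes, where chance alone gives a share of 0.05. Vegfb differed by -0.04 in sham, by 2.82 at day 3 and by -0.90 at day 7 in the means of the deposited values (interaction 4.59 ± 1.31 SE against sham, adjusted p = 0.88, and 4.37 ± 1.11 against day 7, adjusted p = 0.40). Cacna1a differed by 0.05, -3.63 and 3.19 (-7.38 ± 1.57 SE against day 7, adjusted p = 0.26). Lman1 differed by 0.01, -1.47 and -0.37. Tuba1a differed by 1.24 in sham, 0.99 at day 3 and 0.00 at day 7, and Ntrk2 by 1.10, 1.49 and 0.41.

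Of the 358 genes that were higher at day 3 without overlap, 270 (75.4%) also had a higher REST cKO mean in sham, against 51.3% of all genes, and of the 396 lower genes 267 (67.4%) had a lower one, against 48.7%. In the fitted differences, which account for the sequencing components, these shares were 63.1% and 55.1%, against 51.8% and 48.2% of all genes. At day 7, 58.7% of the higher genes had a higher mean and 39.9% of the lower genes a lower one, against 60.6% and 39.4% of all genes.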

How the data were processed

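RNA of sensorimotor cortex cells sorted as neurons was sequenced from the 3′ end. Per the study's methods and the submitters' processing notes, the authors aligned reads with STAR to mm10, estimated counts with Salmon, applied DESeq2 size factors and the batch correction RUV, and regressed out sequencing covariates. The deposited values are the resulting log2 normalized counts, with 9955 genes in rows; 24 rows without a symbol (0.241%) were left out. The depth of each library is not given in the sources used here, so no counting interval was computed. The table also holds the authors' own log2 fold changes and p-values of their comparisons, which were not used.

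Groups were taken from the sample labels. Because the values are not counts, limma 3.58.1 (R 4.3.3) was fitted to all 9931 genes and 25 libraries, with 1 term for each genotype and time point and both sequencing components, empirical Bayes with trend, and Benjamini-Hochberg adjustment at 0.1. Genes without overlap between the 7 libraries were counted separately. Named genes were Rest and the study's genes, the 12 highest and 12 lowest by moderated t among genes without overlap and with a mean of at least 0 in the higher genotype, and up to 3 per list and direction; genes named outside this rule, such as Insig2, Scap, Sc5d and Acss1, the promoter genes and those that correlate with a component, were chosen after their values were seen. Genes, lists and comparisons were chosen with earlier results of these data known. The script was tested on simulated data. Gene coordinates are from the GENCODE annotation of GRCm38 and promoters from RefSeq. Some of the genes that met the rule are not reported here.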

Additional observations from a re-analysis of the deposited data

Results flagged for a closer look

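In 12 of the 160 named genes, 1 of the 4 REST cKO libraries lay far from the other 3 by Dixon's test at the 95% level, which by chance happens in about 1 group of 20. REST cKO replicate 9 was low for the kainate receptor genes Grik1 (-3.48) and Grik5 (-3.55) and for Socs3 (0.38), and high for Map3k10 (0.73) and Ppib (2.28). REST cKO replicate 27 was low for Rest (-1.61) and Prkx (0.15), and high for the mitophagy kinase gene Pink1 (2.84) and the peroxiredoxin gene Prdx6 (2.42). REST cKO replicate 15 was high for Ntrk2 (3.64) and low for Rplp1 (3.26), and replicate 20 was high for Atp2b1 (2.64). Of these genes, Grik5 and Rest correlate with a sequencing component.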

How the results depend on the processing

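With 4 and 3 libraries, the 95% interval of the median gene reached 2.03 to either side on the log2 scale. No paired analysis was possible because no replicate number occurs in more than 1 group; a fit with batch as a term gave 0 calls at day 3, 532 genes at an unadjusted p under 0.05 and a lowest adjusted p of 0.866 (limma). The alternatives that kept the 7 libraries gave 0 adjusted calls at day 3, and those also run for sham and day 7 gave 0 there; the fits of the 7 libraries alone and that with changed values were run for day 3 only. Leaving out 1 library gave 0 to 3 calls at day 3, the 3 (Vegfb, Acss1 and Ebp) without WT replicate 22 and 0 without any of the others. Genes at an unadjusted p under 0.05 at day 3 numbered 633, and 349 with only the 7 libraries and both components; against sham they numbered 511, and 247 without components. Genes without overlap numbered 358 higher and 396 lower; leaving out 1 library gave 476 to 924 and 527 to 1021, and a mean of at least 0 left 208 higher (3.01%). Fewer libraries to separate, and fewer genes, account by construction for part of these shifts.

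Of 2804 pairs of named gene and alternative, 2755 kept the direction. The direction held under every alternative in 143 of the 160 genes. Most of these genes were named because their day 3 values did not overlap, and refits of the same values can hardly turn such genes. These counts therefore say little about how stable the differences are. Several of the genes that did turn, such as Klf4, Gap43 and Basp1, overlapped between genotypes. Klf4 turned to 0.0897 without components (0.0897 also with only the 7 libraries), 0.129 with only the 7 libraries and both components, 0.0138 with library weights, 0.181 after quantile normalization and 0.127 with the share of values under -2 as a term. Mapkapk2 turned to -0.0156 without components (-0.0156 also with only the 7 libraries) and -0.0956 with sex. With only the 7 libraries and both components, Ehmt2 was -0.0338, Ndufb5 -0.0900, Pcna -0.684, Ptprn 0.0105, Rpl7a -0.0439, Stat3 -0.0274, Syt4 1.497, Tmem173 -0.0841 and Vav2 0.256. With batch, Stat3 was -0.0139 and Syt4 0.0689; with sex, Basp1 was 0.0722, Gap43 0.355 and Socs3 -0.0329. Syt4 was 0.515 with weights and 0.427 with the share under -2, and Basp1 0.123 after quantile normalization and 0.00825 with that share. Leaving out 1 library gave ranges of -0.413 to 0.218 (Klf4), -0.178 to 2.44 (Pcna), -1.27 to 1.14 (Syt4), -0.157 to 0.223 (Basp1), -0.670 to 0.432 (Gap43), -0.0543 to 0.301 (Mapkapk2), -0.484 to 0.326 (Socs3), -0.000863 to 0.182 (Egr1), -0.0471 to 1.42 (Rapgef4), -0.274 to 0.199 (Stat3) and -0.00117 to 0.815 (Pink1). The cause was not tested.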
